A study of Mus musculus with 24 samples.

Results

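Genes of the proteasome were compared between the brains of 2N mice, whose chromosome complement is normal, and Ts1Cje mice, a model of Down syndrome. RNA was measured on 2 Affymetrix designs, here array A and array B. Members were the probe sets that the platform annotation gives a single gene symbol of the proteasome family. The family comprises the subunit genes named Psma, Psmb, Psmc and Psmd with a number, the regulator genes Psme and Psmf1, and the assembly factor genes Psmg1 to Psmg4. This gave 65 probe sets of 47 genes, 57 (array A) and 8 (array B), of 24833 probe sets in all. One of the 47 genes, Psmc3ip, fits the naming pattern but encodes a meiotic recombination cofactor and not a part of the proteasome. Its dim probe set was not tested, and it is left out of every count of subunits below. A further 2 probe sets name a proteasome gene beside another gene and were not used.

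Per genotype there were 6 samples for either design, numbered 1 to 6 in the labels. Ts1Cje mice carry an additional copy of a distal part of chromosome 16, translocated onto distal chromosome 12, and Sod1 at its edge is disrupted on the extra copy. The 2N samples carry no extra segment. Per the labels, total RNA of brain was used; they give neither strain, brain region, age nor sex. Whether every sample is a separate animal is not stated, so the p-values rest on a spread between samples that may be technical in part.

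The proteasome degrades proteins tagged with ubiquitin. Its 20S core is a stack of rings built from alpha subunits (Psma genes) and beta subunits (Psmb genes), and its 19S regulator holds a ring of ATPases (Psmc genes) and further subunits that bind and deubiquitinate substrates (Psmd genes). Assembly needs dedicated chaperones that are not part of the finished particle. The protein of Psmg1, also called PAC1, pairs with that of Psmg2 and helps the alpha ring to form. In neurons the proteasome takes part in protein quality control and in the turnover of synaptic proteins. Of the family, Psmg1 and Psmd2 are annotated to chromosome 16. In gene order Psmg1 is distal to Sod1 and trisomic in Ts1Cje, whereas Psmd2 lies on the centromeric side of Sod1 and is disomic. The other 44 subunit and chaperone genes are on other chromosomes, so 45 genes with 63 probe sets served as the disomic comparison.

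The proximal promoter of Psmg1 is shown beside those of a pair of disomic subunit genes, because the comparison sets the trisomic chaperone gene against them. Psmd4 encodes a ubiquitin receptor of the 19S regulator and Psmb5 a catalytic beta subunit. The sequences are the 250 bases upstream of the transcription start, from RefSeq (GRCm38.p6), 5′ to 3′ on the strand of the gene. Capitals mark CCGGAAG, the core bound by ETS factors, CCAAT (here on the reverse strand as ATTGG), the box bound by NF-Y, and TGACNNNGC, the core of the antioxidant response element to which Nfe2l1, a transcription factor of proteasome genes, binds.
Psmg1, chr16:95990961-95991210, strand -: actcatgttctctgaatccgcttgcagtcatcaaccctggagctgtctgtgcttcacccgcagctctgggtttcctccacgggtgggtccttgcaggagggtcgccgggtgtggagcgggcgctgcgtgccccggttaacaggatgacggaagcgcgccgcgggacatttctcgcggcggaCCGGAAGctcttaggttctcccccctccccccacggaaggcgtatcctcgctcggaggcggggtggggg
Psmd4, chr3:95042615-95042864, strand -: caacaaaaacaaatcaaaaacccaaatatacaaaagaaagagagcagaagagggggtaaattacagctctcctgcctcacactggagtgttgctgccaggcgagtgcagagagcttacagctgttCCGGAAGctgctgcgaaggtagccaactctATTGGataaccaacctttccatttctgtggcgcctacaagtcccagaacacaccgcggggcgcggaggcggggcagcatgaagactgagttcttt
Psmb5, chr14:54617996-54618245, strand -: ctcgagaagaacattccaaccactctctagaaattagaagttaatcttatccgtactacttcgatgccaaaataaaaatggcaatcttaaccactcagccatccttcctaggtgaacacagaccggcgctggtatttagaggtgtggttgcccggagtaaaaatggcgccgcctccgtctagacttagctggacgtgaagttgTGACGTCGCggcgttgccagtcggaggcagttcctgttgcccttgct

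The Psmg1 window holds 1 ETS core and neither of the other motifs, Psmd4 holds an ETS core and a CCAAT box, and Psmb5 holds the antioxidant core alone. These motifs were searched on both strands after the Psmg1 sequence had been seen, in the 39 of 46 genes with an entry. CCGGAAG was present in 11 of the 39 windows (28.2%), that of Psmg1 among them. Over the 27025 windows of all genes, which were not matched in base content, the share was 7.05%. Of the 39 windows, CCAAT was present in 14 (35.9%, against 34.5% of all) and TGACNNNGC in 5 (12.8%, against 10.1%). The palindrome bound by nuclear respiratory factor 1 was present in 1 (2.56%, Psma2, against 0.781%). That factor is encoded by a gene other than Nfe2l1. A match is a description of letters and says nothing of binding.

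The deposited array medians were 11.2 to 21.7 (array A) and 7.9 to 13.8 (array B), so values were quantile normalised within each table. The first principal component of both arrays (14.6% and 12.8% of the variance) separated replicates 1 and 2 from replicates 3 to 6 in each genotype, a split that the labels do not mention. The actin 3′ to 5′ signal ratio overlapped between genotypes, at 1.03 to 1.41 in 2N and 1.11 to 1.27 in Ts1Cje on array A. Of the markers used to check the tissue label, 6 of 6 neuronal and 5 of 6 astrocyte genes were above the median of the tested probe sets of array A. Of 4 genes listed for liver, taken as an absent tissue, 2 were tested. Their 2N means were 244 (Ttr, array A) and 5.92 (Apoa1, array B). In total 9316 probe sets on array A and 9308 on array B passed the filter on low values and were tested with limma. A probe set was called where its p, adjusted by Benjamini-Hochberg over all tested probe sets of that design, was under 0.05. Of the 65 members 58 were tested. The 7 others, among them the only probe sets of Psmb9, Psmb11 and Psmc3ip, were too dim.

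Psmg1 was higher in Ts1Cje brain, and it was the one proteasome probe set called of 52 tested on array A. On array A 0.0966% of tested probe sets were called. In the 2N samples 1 to 6 the Psmg1 intensity was 58.25, 41.63, 48.92, 49.35, 44.11 and 49.87. In the Ts1Cje samples it was 85.38, 68.42, 73.97, 81.42, 72.82 and 123.7. Every Ts1Cje sample exceeded the highest 2N sample, as did those of 0.193% of all tested probe sets. Ts1Cje replicate 6 lay well above the rest only after scaling. As deposited it was at 75.3, between the lowest (60.6) and the highest (96.6) Ts1Cje sample. The normalised means were 48.7 ± 5.73 and 84.3 ± 20.3 (SD, n = 6). The log2 difference was 0.77 (SE 0.14, 95% interval 0.48 to 1.06), or 1.71-fold, with a limma adjusted p of 0.031 and a two-sided exact permutation p of 0.0022, the smallest that 924 splits allow. The interval of 1.40-fold to 2.08-fold holds the 1.5-fold ratio of 3 gene copies to 2.

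The Psmg1 difference was 0.71 to 0.83 under every alternative other than leaving out samples, except that adding 64 before log2, which shrinks differences, gave 0.39 (limma adjusted p = 0.048). Its call did not hold under every setting. Among replicates 3 to 6 alone the difference was 0.83 (limma adjusted p = 0.13, exact permutation p = 0.029, the smallest possible with 8 samples), and among replicates 1 and 2 it was 0.63, where the exact permutation p cannot fall below 0.33. With 1 sample left out it stayed between 0.65 and 0.82, and the lowest value came without Ts1Cje replicate 6. The call was lost without any 1 of 9 samples, namely 2N replicates 2, 3, 4, 5 or 6 or Ts1Cje replicates 1, 3, 4 or 5, with limma adjusted p up to 0.104. As deposited, without normalisation between arrays, the groups overlapped: the highest 2N value was 70.1 (replicate 1) and the lowest Ts1Cje value 60.6 (replicate 2). In those values the highest 2N sample was exceeded by 5 of 6 Ts1Cje samples (exact permutation p = 0.0065), and limma made no call (adjusted p = 0.9999).

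**Figure D1:**
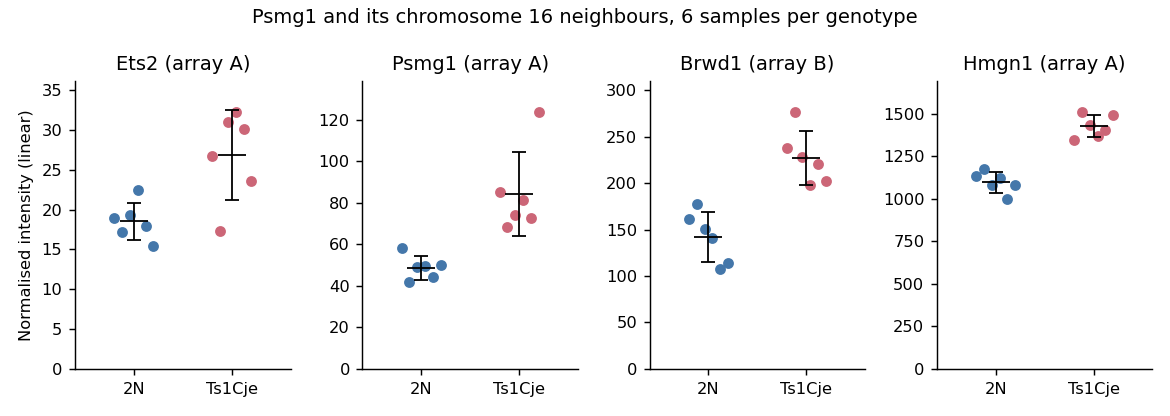
Normalised intensity (linear axis from 0) of Psmg1 and 3 neighbouring genes of the trisomic segment in 2N and Ts1Cje brain. Points are the 6 samples of each genotype, and bars give mean and SD; Psmg1 ran from 41.63 to 58.25 in 2N and from 68.42 to 123.7 in Ts1Cje, and only Ets2 shows overlapping groups.

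Psmg1 lies between Ets2 and Brwd1 in the order of protein-coding genes, with Hmgn1 beyond Brwd1. Ets2, which encodes an ETS-family transcription factor, was dim. Its intensity was 15.46 to 22.44 in 2N, with 1 Ts1Cje sample (replicate 2, at 17.27) inside that range and the others between 23.58 and 32.26. The estimate for Ets2, 0.51 (SE 0.18), missed the threshold (limma adjusted p = 0.99). Brwd1, a bromodomain gene measured on array B, rose by 0.69 (SE 0.12, adjusted p = 0.021), and Hmgn1, the gene of a nucleosome-binding protein, rose by 0.38 (SE 0.054, adjusted p = 0.0054). The Psmg1 estimate was above all 3, but its interval overlaps those of Ets2 (0.13 to 0.89) and Brwd1 (0.45 to 0.94) widely and that of Hmgn1 (0.26 to 0.49) only at its edge. Of the other genes within 4 positions of Psmg1, added here after their values were seen, Kcnj6 differed by -0.03 (SE 0.53), Kcnj15 by 0.74 (SE 0.64) and Get1 by 0.35 (SE 0.19). The Kcnj6 and Kcnj15 probe sets were dim. None of these 3 probe sets was called by limma (adjusted p of 0.9904 to 0.9983), and Erg and Lca5l were not tested. Differences between the neighbours were not tested.

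The disomic genes of the proteasome did not follow Psmg1. On array A 0 of 51 tested disomic probe sets were called by limma, where an unadjusted p under 0.05 was reached by 2 (3.92%, against 3.63% of all tested probe sets). Their log2 differences were above 0 for 26 and below 0 for 25, and 48.9% of all tested probe sets were above 0. The median was 0.00278, beside -0.00424 over all tested probe sets, and the quartiles ran from -0.09 to 0.08, beside -0.13 to 0.12 over all. Groups did not overlap for 0 of the 51, and for 0.301% of all tested probe sets. On array B 0 of 6 disomic probe sets were called, 0 had an unadjusted p under 0.05, and the median was -0.01. There 0.0645% of all tested probe sets were called, and 3 of the 6 were above 0, beside 49.3% of all. These probe sets were bright as a group, since 42 of the 51 were above the median intensity of the array.

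The intervals of the disomic probe sets show how large a rise of a single probe set could have gone unseen. They are not intervals for a rise shared by these probe sets. The upper end of the 95% interval was below 1.5-fold for 42 of 51 on array A, and 70.1% of all tested probe sets had such an interval. It was below the Psmg1 estimate for 45 and below the lower end of the Psmg1 interval for 41. No share over all tested probe sets was taken for these counts. Each gene was then represented by its brightest probe set, taken from array A wherever it had a tested one there. Of 43 disomic genes, 38 had an interval within 1.5-fold in both directions, beside 55.2% of all tested probe sets of array A. The 38 included all 26 disomic genes with a mean intensity over 100. Among all probe sets of array A that bright the share was 97.7%, so this precision is that of bright probe sets in general. For single dim probe sets larger differences were not resolvable either, since the interval reached up to 2.38-fold for Psmc4 and 2.61-fold for Psmd2.

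The difference between Psmg1 and the other members was also followed within each sample. For each of the 12 array A samples the median deviation of the 51 disomic probe sets from their own means was taken on the log2 scale. It lay between -0.11 and 0.09 in 2N and between -0.03 and 0.06 in Ts1Cje, with means of 0.00206 ± 0.074 and 0.0121 ± 0.030 (SD, n = 6). Psmg1 relative to this median was at -0.39 ± 0.18 in 2N (-0.68 to -0.20) and at 0.37 ± 0.29 in Ts1Cje (0.10 to 0.93), a difference of 0.76. The groups did not overlap on this measure, for which no test is given because it is a score over chosen members. Taking the members singly, the log2 ratio of Psmg1 to the other probe set was higher in all Ts1Cje than in all 2N samples for 28 of 51 (54.9%), against 32.9% of all tested probe sets. Among probe sets with a mean intensity over 100 it was 21 of 27 (77.8%), beside 67.9% of 1785 others. The share therefore moves with intensity, and its part in the count over the 51 was not tested further.

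**Figure D2:**
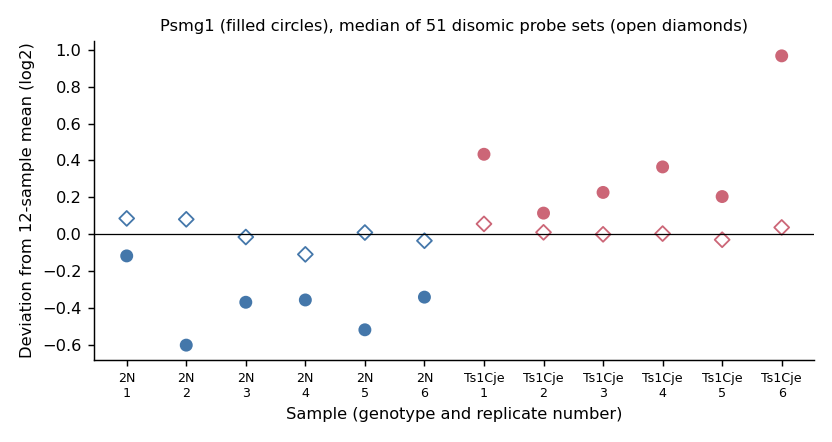
Deviation from the 12-sample mean (log2) of Psmg1 (filled circles) and median deviation of the 51 tested disomic proteasome probe sets (open diamonds) in each array A sample, with 2N in blue and Ts1Cje in red. Psmg1 is below 0 in all 2N and above 0 in all Ts1Cje samples, while the disomic median stays between -0.11 and 0.09.

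Of the other chaperones of the alpha ring, named here after their values were seen, none was called by limma. Psmg2, whose protein is the partner of the Psmg1 protein, is disomic and had a dim probe set. It was at 9.32 to 20.8 in 2N (median 15.8) and 10.5 to 20.2 in Ts1Cje (median 14.7), so the groups lay over each other. Its log2 difference was 0.00278 (SE 0.24), with an interval of -0.50 to 0.51. That interval does not reach the Psmg1 estimate but overlaps the lower edge of the Psmg1 interval (0.48 to 1.06). Psmg3 and Psmg4 encode another chaperone pair. Psmg4 went from 64.3 ± 7.08 to 73.9 ± 15.4 (SD, n = 6), a difference of 0.18 (SE 0.14, limma adjusted p = 0.99), and the brighter Psmg3 probe set differed by 0.26 (SE 0.17). That Psmg3 difference was 0.74 in replicates 1 and 2 and 0.02 in replicates 3 to 6. Its lowest value was that of 2N replicate 1, at 25.57, while the other 2N samples were at 45.15 to 56.46. Pomp, the gene of the chaperone of the beta ring, was at 242 ± 34.6 and 206 ± 51.5, with a difference of -0.25 (limma adjusted p = 0.99). The difference between Psmg1 and each of these genes was not tested by itself.

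The 7 alpha subunit genes of the 20S core were all measured, and each had an upper interval end below 1.5-fold. Their differences ran from -0.10 (Psma2) to 0.04 (Psma5), with 3 above 0 and 4 below. Psma3 was the brightest. Its intensity was 420 to 463 in 2N (median 447) and 395 to 494 in Ts1Cje (median 441), so the Ts1Cje samples spread around the 2N range on both sides, and the log2 difference was -0.00643 (SE 0.062). These are the subunits that the Psmg1 and Psmg2 proteins help to assemble, and 0 of 7 reached an unadjusted p under 0.05.

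All 7 constitutive beta subunit genes were measured as well, by 10 tested probe sets on array A with differences between -0.11 and 0.41 and a median of 0.04. Psmb4, the brightest, was at 262 to 398 in 2N and 294 to 385 in Ts1Cje (difference 0.05, SE 0.093). The catalytic subunits are encoded by Psmb6, Psmb7 and Psmb5. Psmb6 was at 203 to 279 in 2N (median 219) and 214 to 279 in Ts1Cje (median 226), with a difference of 0.03 (SE 0.089) whose sign turned with median scaling and without normalisation. Psmb7 was at 185 to 240 (median 195) and 167 to 209 (median 189), a difference of -0.09 (SE 0.082). For both genes the ranges of the genotypes overlap.

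Psmb5 had 3 tested probe sets that did not move alike. The dimmest, on array A, was at 13.7 to 22.2 in 2N (median 19.8) and 19.3 to 32.7 in Ts1Cje (median 24.2), and 5 of 6 Ts1Cje samples exceeded the highest 2N sample. Its difference of 0.41 (SE 0.18) had an unadjusted p of 0.038 and did not pass (limma adjusted p = 0.99). The brighter array A probe set, at 105 ± 17.3 and 110 ± 6.72 (SD, n = 6), differed by 0.09 (SE 0.11). The array B probe set, at 140.5 ± 7.74 and 133 ± 17.8, differed by -0.09 (SE 0.089), in the other direction. Of the 3 probe sets, only the dimmest reached an unadjusted p under 0.05.

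Interferon-inducible beta subunits replace the constitutive catalytic ones in the immunoproteasome, and the trisomic segment holds interferon receptor genes. Psmb10 was at 72.0 to 101 in 2N (median 83.3) and 57.4 to 96.1 in Ts1Cje (median 77.9), a difference of -0.14 (SE 0.14). Psmb8 was dim, at 4.525 to 15.43 in 2N and 4.5 to 14.55 in Ts1Cje, with a difference of -0.02 (SE 0.37) and an interval of -0.80 to 0.76, too wide to exclude a 1.5-fold change either way, and its sign turned with median scaling and with array weights. Psmb9 was not tested, with means of 1.81 and 1.96, near the floor of 1.47, and the thymic Psmb11 was not tested either. Of the antigen presentation and interferon response list, 6 of 10 genes were tested on array A and 0 were called by limma, with 1 unadjusted p under 0.05, that of H2-K1 (0.36, SE 0.12, adjusted p = 0.99). The peptide transporter gene Tap1, named here after its value was seen, differed by -0.48 (SE 0.24, limma adjusted p = 0.99).

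**Figure D3:**
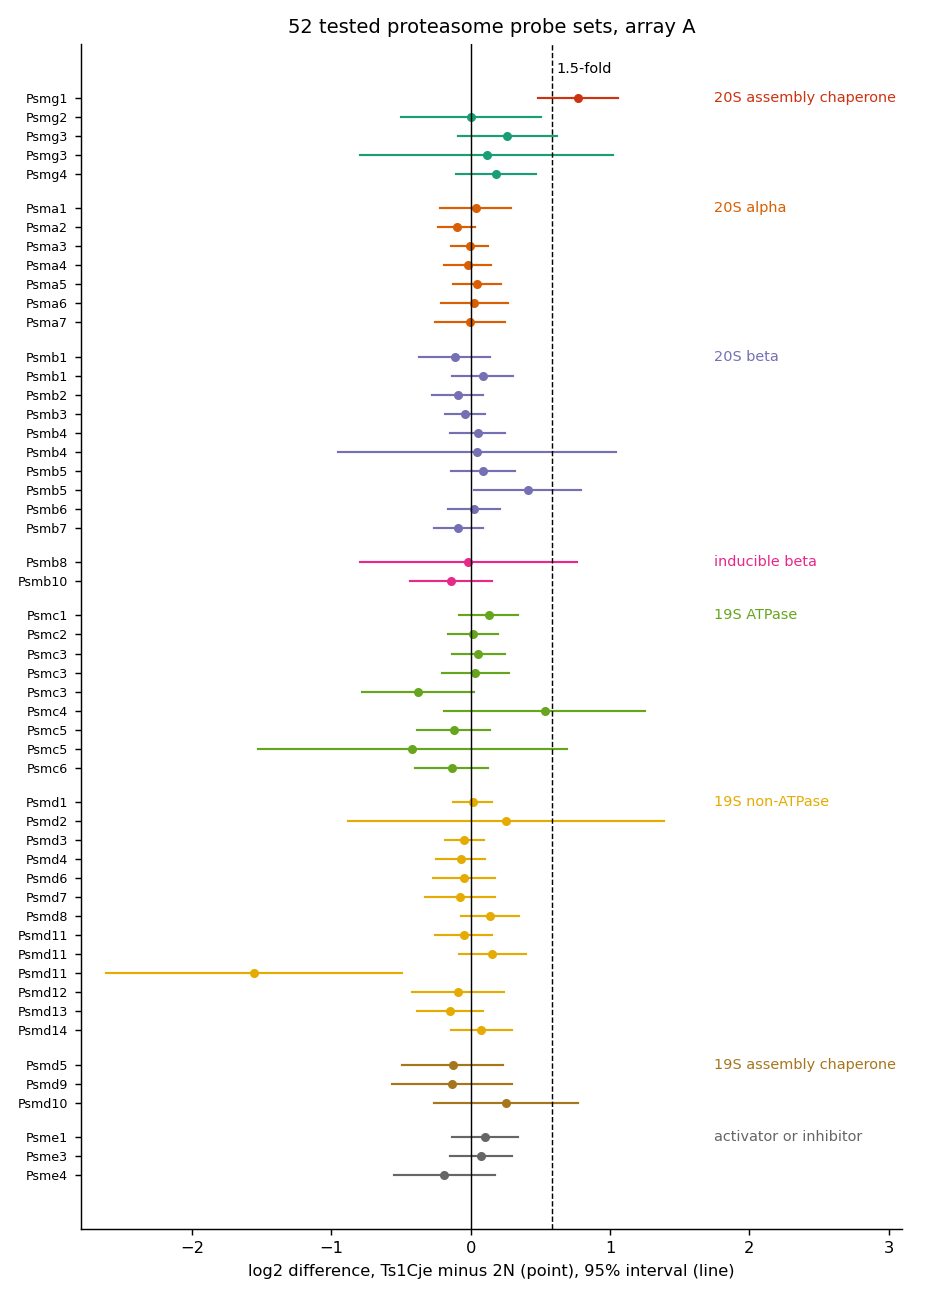
Log2 difference (Ts1Cje minus 2N; points) with 95% interval (lines) of the 52 tested proteasome probe sets of array A, grouped by role; genes with several probe sets appear several times, brightest first. The Psmg1 interval (0.48 to 1.06) lies above 0 and spans the dashed 1.5-fold line, most others are centred near 0, and the widest belong to dim probe sets. The intervals of the dimmest Psmb5 (0.03 to 0.79) and the dimmest Psmd11 probe set (-2.62 to -0.49) also exclude 0, and neither was called.

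The 6 ATPase genes of the 19S regulator gave 9 probe sets on array A, with a median of 0.02 and 0 called by limma. Psmc6, the brightest, was at 166 to 232 in 2N and 143 to 232 in Ts1Cje on array A (-0.14, SE 0.12) and differed by -0.05 (SE 0.13) on array B. Psmc4 had the highest estimate after Psmg1, 0.53 (SE 0.34), on a probe set near the lower end of the tested range. Its intensity was 8.68, 7.18, 5.50, 5.07, 8.78 and 2.80 in 2N and 8.88, 8.70, 7.10, 8.63, 9.03 and 9.08 in Ts1Cje. The highest samples of the genotypes were close to each other, and the genotypes differ in the low values of some 2N samples. It did not pass (unadjusted p = 0.14, limma adjusted p = 0.99).

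Of the 11 non-ATPase subunit genes of the 19S regulator, 5 of 13 probe sets were above 0 and 8 below, with a median of -0.05 and 0 called by limma. Psmd4, the brightest, was at 295 to 422 in 2N (median 337) and 298 to 349 in Ts1Cje (median 324), a difference of -0.07 (SE 0.083). Psmd2, the other member on chromosome 16, had a dim probe set at 7.45 ± 5.18 and 8.19 ± 4.38 (SD, n = 6) and a difference of 0.25 (SE 0.54), too imprecise to tell it from 0 or from 1.5-fold. It is named here after its values were seen. The lowest estimate of all members was that of 1 of 3 Psmd11 probe sets, at -1.56 (SE 0.50, unadjusted p = 0.0066, limma adjusted p = 0.99). It was at 17.37, 3.217, 27.22, 18.95, 4.608 and 21.79 in 2N and between 2.83 and 5.63 in Ts1Cje. Thus 4 of 6 2N samples lay above all Ts1Cje samples, and 2N replicates 2 and 5 lay among them. The brighter Psmd11 probe sets, with 2N means of 174 and 48.6, differed by -0.05 (SE 0.098) and 0.15 (SE 0.11).

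The chaperones of the 19S base are encoded by Psmd5, Psmd9 and Psmd10, and 0 were called by limma. Psmd5 was at 115 to 235 in 2N and 96.5 to 182 in Ts1Cje on array A (-0.13, SE 0.17), and its array B probe set, with 2N values from 1.56 to 11.1, was too dim to read. In both genotypes of array A the highest Psmd5 sample was replicate 2. Psmd9 and Psmd10, named here after their values were seen, differed by -0.13 (SE 0.20) and 0.25 (SE 0.25). Among regulators that cap the 20S core in place of the 19S, Psme1 was at 133 to 186 in 2N (median 144) and 132 to 199 in Ts1Cje (median 164), a difference of 0.10 (SE 0.11). In both genotypes replicates 1 and 2 held the highest Psme1 values. Psme3 and Psme4 differed by 0.07 (SE 0.11) and -0.19 (SE 0.17). The inhibitor gene Psmf1 had 3 probe sets on array B, the brightest at 65.13 to 74.97 and 61.09 to 79.09, with differences of 0.05, 0.01 and -0.04.

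Across the 10 genes with several tested probe sets, the probe sets of 6 genes gave estimates of opposite sign. For Psmb1 both probe sets were bright, with -0.11 (SE 0.12) at 266 in 2N and 0.09 (SE 0.10) at 157. For Psmc3, a probe set at 34.2 in 2N gave -0.38 (SE 0.19), where the brighter ones at 97.3 and 60.1 gave 0.05 and 0.03. The Psmc5 probe sets shared a sign but not a size: one at 6.85 gave -0.42 (SE 0.53), beside -0.12 (SE 0.12) for one at 67.9. Probe sets whose names carry the letters f, i, r or s were designed with relaxed rules or may bind related transcripts, so their values may include other genes. Among those reported here they are the probe sets of Psma3, Psmb7 and Psmd9, all of Psmc3, and the brightest of Psmb4 and Psmg3. They also include the brighter array A and the array B probe set of Psmb5, Psmf1 at 0.01, Psmd11 at -1.56 and Psmc5 at -0.42. The split of replicates was also visible in level: the 51 disomic probe sets of array A were higher in replicates 1 and 2 than in 3 to 6 by a median of 0.14. The median genotype difference of the same probe sets was 0.04 among replicates 3 to 6 and -0.08 among replicates 1 and 2.

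**Figure D4:**
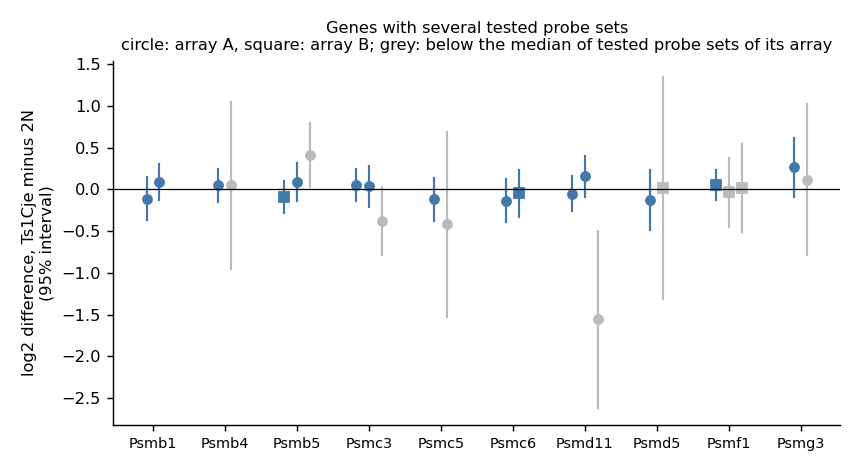
Log2 difference (Ts1Cje minus 2N) with 95% interval for the 10 proteasome genes with several tested probe sets, ordered by brightness within a gene; circles are array A, squares array B, and grey marks probe sets below the median intensity of the tested probe sets of their array. The estimates farthest from 0, Psmd11 at -1.56 and Psmc5 at -0.42, belong to grey probe sets. Brighter probe sets of the same genes are at -0.05 and 0.15 (Psmd11) and at -0.12 (Psmc5).

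Genes that feed substrates to the proteasome or control its genes were taken from 5 lists of 79 symbols, older names included. Of the 61 that were measured, 0 were called by limma, 6 had an unadjusted p under 0.05 (9.84%, against 3.63% of all tested probe sets of array A and 4.24% of array B), and the median difference was -0.01. Groups did not overlap for 0 of the 61, against 0.301% for array A and 0.247% for array B. Among 27 ubiquitin-activating and conjugating enzyme genes, Ube2h went from 68.9 ± 10.3 to 88.7 ± 8.06 (0.37, SE 0.11, adjusted p = 0.89) and Ube2s from 109 ± 23.8 to 142 ± 24.4 (0.40, SE 0.15). Ube2a and Ube2r2 differed by -0.47 (SE 0.17) and -0.19 (SE 0.088). These had unadjusted limma p-values of 0.0031, 0.018, 0.014 and 0.0497, and adjusted ones of 0.89 for Ube2h and 0.99 for the others.

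Among 12 proteasome-bound receptors, deubiquitinases and shuttle genes, 4 were above 0, and Txnl1, which encodes a thioredoxin-like protein bound to the 19S regulator, went from 37.0 ± 8.88 to 49.1 ± 7.56 (0.43, SE 0.16, limma adjusted p = 0.99). Of 13 genes of the p97 segregase and its cofactors, the brightest, Vcp and Ubxn1, differed by -0.000105 (SE 0.10) and -0.05 (SE 0.067). Of 9 transcription factors of proteasome genes and their regulators, Stat3 differed by 0.34 (SE 0.13, adjusted p = 0.99). Nfe2l1, named here after its value was seen, was at 154 ± 16.5 and 158 ± 14.0 (0.04).

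Marker lists of cell types were compared beside these results. On array A the summed intensity of 5 of 6 listed neuronal markers was 4363 to 5173 in 2N and 4736 to 5564 in Ts1Cje, and that of 5 of 6 microglia markers 238 to 297 and 205 to 302. For 6 of 6 endothelial markers it was 296 to 371 and 294 to 390, for 5 of 6 astrocyte markers 1290 to 1554 and 1399 to 1733, for 2 of 6 oligodendrocyte markers 49.68 to 60.43 and 44.55 to 59.09, and for 3 of 5 erythroid markers 927 to 1502 and 1010 to 1176. The ranges overlapped in every list named here, and 0 markers of these lists were called by limma on either array. In these linear sums the brightest genes weigh most, with 2N means of 2673 (Tubb3), 1839 (Stmn2), 1086 (Fabp7) and 1113 (Hba-a1). Over both arrays, log2 differences were above 0 for 6 of 6 tested neuronal, 5 of 6 astrocyte and 4 of 6 endothelial markers. The same held for 1 of 5 microglia, 0 of 3 oligodendrocyte and 0 of 3 erythroid markers, beside 48.9% (array A) and 49.3% (array B) of all tested probe sets. Of 5 listed T cell markers only Cd4 passed the filter on low values, at 5.38 to 30.8 over both genotypes. In such whole tissue, fewer cells of a type and less RNA per cell cannot be told apart, and the part of cell composition in the Psmg1 difference was not tested.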

How the data were processed

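Total RNA of mouse brain was measured on 24 arrays of 2 designs, with 6 samples per genotype and design. The deposited values are intensities on a linear scale, 1 per probe set and array; the sources used here do not give how the authors summarised and scaled them. Depth has no meaning for arrays, and their number limits the precision. After leaving out 66 control probe sets per design, each table was quantile normalised, floored at its 10th percentile (1.47 on array A, 1.13 on array B) and taken to log2. Those whose mean reached the 25th percentile were tested with limma 3.58.1 in R 4.3.3 (lmFit, eBayes with a mean-variance trend), with Benjamini-Hochberg adjustment within the table. Folds are on the floored log2 scale, which shrinks the change of dim genes. The pipeline was tested on simulated data. A chosen gene had 1 symbol in the platform annotation; chromosomes and gene order are from RefSeq (GRCm38.p6), used for order only.

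Members named with values were Psmg1, those called or with an unadjusted p under 0.05, the brightest of each role, the catalytic genes and the 3 highest and 3 lowest of each array; the partner genes named were those with an unadjusted p under 0.05 or else the 2 brightest of a list. The members and lists were chosen with earlier results of these data known. Alternatives changed the scaling, floor, filter, trend, array weights, replicate block and replicate split, and left out each sample. The replicate numbers were not taken as pairs. The genes of 1 of the 5 partner lists are not reported here.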

Additional observations from a re-analysis of the deposited data

Results flagged for a closer look

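Of 46 groups of 6 samples examined among 23 named proteasome probe sets, 2 held a sample far from the others, measured as its gap to the nearest sample over the range of the group on the log2 scale. Chance flags about 1 group in 20. The Psmg1 value of Ts1Cje replicate 6, at 123.7 against 85.4 for the next sample, had a gap of 0.626 of the range. As deposited, without normalisation between arrays, that value was 75.3 and lay within the range of the other Ts1Cje samples. The dim Psmc4 probe set was lowest in Ts1Cje replicate 3, at 7.10 against 8.63 for the next sample, with a gap of 0.79 of the range.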

How the results depend on the processing

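The Psmg1 difference was above 0 in all 22 alternatives. It missed the threshold of limma with median scaling (0.74, adjusted p = 0.089), without normalisation between arrays (0.71, 0.9999), without a filter (0.77, 0.099), without a trend (0.77, 0.15) and with replicates 3 to 6 alone (0.83, 0.13), and in each of these the number of proteasome probe sets called on array A was 0 in place of 1. The cause was not tested. With 1 sample left out the difference was 0.65 to 0.82 and that number 0 to 1. On array B it was 0 throughout, and no partner gene was called. With the replicate block the Psmg1 difference was 0.77 (limma adjusted p = 0.024), and the block changed no call of a named proteasome gene. After the genotype mean of each probe set was subtracted, the remainders of same-numbered samples of the genotypes correlated at 0.0171 to 0.0767 on array A. On array B they correlated at 0.0127 to 0.109. By this measure 3 (array A) and 2 (array B) of 6 samples were closest to their own number. With 64 added before log2, which shrinks differences, Psmg1 relative to the disomic median was 0.39 in place of 0.76, and it was 0.64 to 0.81 with 1 sample left out. Over all tested probe sets, the number called on array A went from 9 to 4 with median scaling, 0 without normalisation and 2 without a trend. On array B it went from 6 to 3 with median scaling, 0 without normalisation, 2 without a filter, 0 without a trend and 1 with replicates 3 to 6 alone. With 1 sample left out it was 6 to 11 on array A and 1 to 6 on array B, where it fell to 1 without 2N replicate 5 or Ts1Cje replicates 1 or 2. Uncalled members near 0 changed sign. On array A median scaling gave -0.00853 for Psmb6 and 0.00285 for Psmb8, no normalisation -0.033 for Psmb6 and -0.00856 for Psmb4, array weights 0.082 for Psmb8, and replicates 3 to 6 alone 0.038 for Psma3. On array B no normalisation gave 0.030 for Psmf1 and 0.00808 for Psmc6, adding 64 gave -5.1e-05 and array weights -0.10 for Psmd5, and replicates 3 to 6 alone -0.067 for another Psmf1 probe set. With 1 sample left out, ranges crossing 0 were -0.024 to 0.084 for Psmb6, -0.20 to 0.17 for Psmb8, -0.040 to 0.024 for Psma3, -0.017 to 0.10 for Psmb4, and on array B -0.30 to 0.35 for Psmd5, -0.12 to 0.075 and -0.069 to 0.13 for Psmf1 and -0.11 to 0.00242 for Psmc6. Signal over background limits Psmb8, Psmb9, Psmc4 and Psmd2, whose probe sets are dim.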
